A study of Mus musculus with 2 samples.

Results

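The 26S proteasome is the protease that degrades most ubiquitin-tagged proteins of the cell, and the genes described here encode its subunits, activators, inhibitor and assembly factors. They were chosen by symbol: genes with a transcript annotated as protein coding and a symbol made of Psma, Psmb, Psmc, Psmd, Psme, Psmf or Psmg followed by a number. The rule took 50 of the 55536 genes in the tables, of which 21901 have a protein-coding transcript. The RNA was that of the left cerebral cortex, taken from 2 males of B6CASTF1/J, a first-generation hybrid of C57BL/6J and CAST/EiJ, both aged 2 months, and the labels name no treatment. Each animal gave 1 library, replicate 2 and replicate 1, made from 300 ng of total RNA depleted of ribosomal RNA with ERCC spike-in RNAs added. Both animals form 1 group, so there is no comparison of conditions. The values answer how much RNA of each subunit the tissue held, how the immunoproteasome subunits stood against the constitutive ones, which transcript forms carried the RNA, and how far the animals differed.

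In the barrel-shaped 20S core, 2 outer rings of alpha subunits gate the entry and 2 inner rings of beta subunits hold the active sites, of which Psmb5, Psmb6 and Psmb7 carry the constitutive ones. In immune cells and under interferon these give way to Psmb8, Psmb9 and Psmb10, which makes the immunoproteasome, known for making peptides for MHC class I. The 19S cap adds a ring of ATPases that unfold substrates and a set of non-ATPase subunits that bind and remove ubiquitin. In neurons the proteasome is known for turning over synaptic proteins.

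Levels are deposited TPM, an abundance set to a sum of 1000000 per library, which is scaled for transcript length and can be compared between genes. Expected counts are estimates of read number and are not scaled for length. The libraries held 32142918 expected counts in replicate 2 and 33007629 in replicate 1. Markers of excitatory neurons summed to 2618 and 2531 TPM in replicate 2 and replicate 1, and the T cell markers Cd3e and Cd8a to 0.0400 and 0.0200 TPM. Some markers differed between the animals. Summed over 3 genes each, striatum markers had 13.5 TPM in replicate 2 and 36.4 in replicate 1. Likewise, oligodendrocyte markers had 501 and 613 TPM and red blood cell markers 364 and 443. The choroid plexus markers Ttr and Kl summed to 91.4 and 10.4 TPM. Ttr gave 89.2 and 8.58 of this and Kl 2.18 and 1.80.

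The promoters of 5 of the 6 catalytic subunits are shown first (Psmb7 is not among them), because the comparison of the immunoproteasome with the constitutive enzyme turns on these genes. Each sequence runs from 250 bases before to 50 bases after the start of the RefSeq gene on build GRCm38.p6. The windows lie at chr17:34197945-34198244 on the plus strand (Psmb8), chr14:54617946-54618245 on the minus strand (Psmb5), chr17:34187281-34187580 on the minus strand (Psmb9), chr11:70525107-70525406 on the plus strand (Psmb6) and chr8:105938343-105938642 on the minus strand (Psmb10). Capitals mark matches, on either strand, to 3 motifs known from regulated promoters: TGACNNNGC, the core bound by NRF-type factors, GAAA followed after any 2 bases by GAAA, the core bound by interferon-activated factors, and CCAAT.
Psmb8: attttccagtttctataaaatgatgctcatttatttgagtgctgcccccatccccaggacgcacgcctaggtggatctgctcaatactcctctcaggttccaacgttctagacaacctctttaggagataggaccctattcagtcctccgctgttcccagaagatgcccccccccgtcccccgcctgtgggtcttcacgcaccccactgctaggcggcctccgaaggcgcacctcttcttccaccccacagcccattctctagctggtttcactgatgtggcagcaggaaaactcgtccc
Psmb5: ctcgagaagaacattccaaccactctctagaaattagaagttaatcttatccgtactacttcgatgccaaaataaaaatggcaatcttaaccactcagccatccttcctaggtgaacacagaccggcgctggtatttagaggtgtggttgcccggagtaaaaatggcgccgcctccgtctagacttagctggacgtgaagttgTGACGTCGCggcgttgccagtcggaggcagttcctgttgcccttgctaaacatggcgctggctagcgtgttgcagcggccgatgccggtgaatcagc
Psmb9: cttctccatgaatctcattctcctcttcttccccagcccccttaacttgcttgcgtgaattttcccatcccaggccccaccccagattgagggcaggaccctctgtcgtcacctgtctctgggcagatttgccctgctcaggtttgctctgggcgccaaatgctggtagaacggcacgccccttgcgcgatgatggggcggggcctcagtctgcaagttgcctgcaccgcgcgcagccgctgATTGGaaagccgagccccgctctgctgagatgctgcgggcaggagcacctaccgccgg
Psmb6: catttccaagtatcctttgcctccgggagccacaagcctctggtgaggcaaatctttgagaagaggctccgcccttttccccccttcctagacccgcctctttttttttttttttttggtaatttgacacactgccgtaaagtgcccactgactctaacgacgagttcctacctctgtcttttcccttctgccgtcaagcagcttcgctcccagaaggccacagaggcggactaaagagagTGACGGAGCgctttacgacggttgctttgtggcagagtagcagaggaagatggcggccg
Psmb10: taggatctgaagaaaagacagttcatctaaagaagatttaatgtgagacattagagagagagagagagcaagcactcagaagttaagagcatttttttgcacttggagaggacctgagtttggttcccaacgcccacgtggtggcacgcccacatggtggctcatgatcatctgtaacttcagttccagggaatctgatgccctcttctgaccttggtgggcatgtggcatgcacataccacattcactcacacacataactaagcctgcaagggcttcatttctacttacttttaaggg

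Of the 50 genes, 42 had a RefSeq promoter entry. TGACNNNGC stood in 6 of the 42 (14.3%), against 12.4% of 32851 promoters and 14% of their genes, and among them were Psmb5 and Psmb6. The interferon-type core stood in 5 (11.9%), against 3.44% of promoters and 3.99% of genes: Psmb3, Psmd4, Psmd9, Psme1 and Psmg4. CCAAT stood in 15 (35.7%), against 37.4% and 41.1%, and gives the match in Psmb9. Psmb8 and Psmb10 held none of the 3 in these windows. The Psmb8 and Psmb9 windows lie wholly inside the annotated spans of these genes given below. Sequence before the annotated starts of Psmb8 and Psmb9 was therefore not searched. Psmb9 and Psmb8 lie 9956 bases apart on chromosome 17, and Psmb9 overlaps 212 bases of Tap1 on the opposite strand, the gene of the peptide transporter that feeds MHC class I.

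Proteasome RNA was abundant. A gene was called detected at 1 TPM or more in both libraries, and 46 of the 50 were. Their median was 49.4 TPM, against 16.0 TPM over 12900 detected genes with a protein-coding transcript, of which 82.4% lay below the proteasome median. The median over all detected genes was exceeded by 37 of the 46. All 50 genes together held 2171 TPM in replicate 2 and 2248 in replicate 1 (2210 ± 55.0, mean ± SD, n = 2), which was 0.217% and 0.225% of the TPM.

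**Figure D1:**
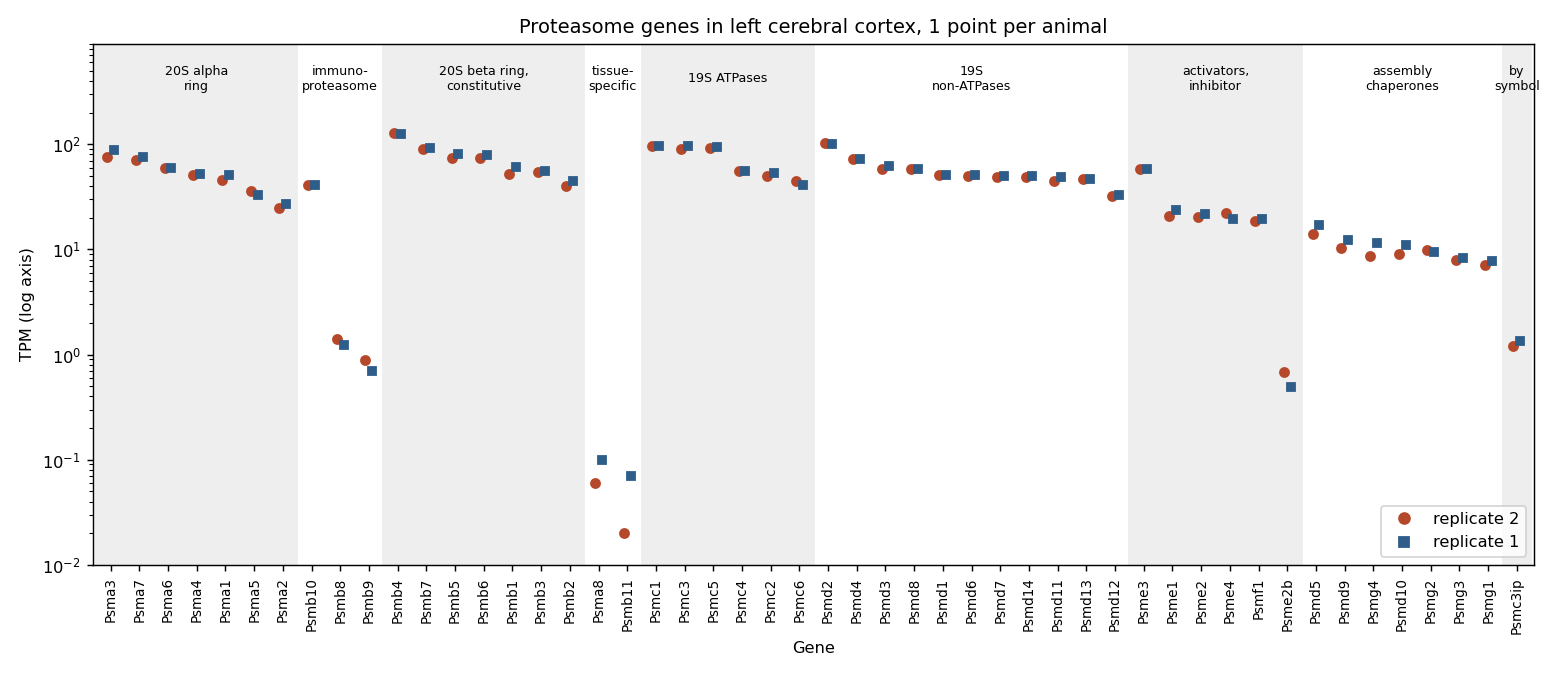
TPM on a log axis of each of the 50 genes, with circles for replicate 2 and squares for replicate 1, ordered by structural role. The constitutive core and cap subunits with a Psm symbol lie between 24.6 and 127 TPM. Psmb8, Psmb9, Psme2b, Psmc3ip and the tissue-specific Psma8 and Psmb11 lie at or below 1.41 TPM.

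The alpha ring, which has 7 kinds of subunit, summed to 364 TPM in replicate 2 and 387 in replicate 1. Psma3 was the highest, at 74.9 and 87.8 TPM, and Psma2 the lowest, at 24.6 and 27.0 TPM. Between them, Psma7 averaged 74.0 ± 3.38 TPM, Psma6 59.6 ± 0.467, Psma4 51.6 ± 0.269, Psma1 48.5 ± 4.39 and Psma5 34.4 ± 1.87 (SD, n = 2 each). Psma3 lay above Psma7, and Psma4 above Psma1, in each animal, but the ranges over the animals overlapped within both pairs. With protein-coding transcripts only, Psma7 had the highest mean, 61.1 TPM, and Psma3 had 34.9 TPM in replicate 2 and 53.6 in replicate 1. Psma8, the testis form of an alpha subunit, was near the limit of counting, with 2 counts in replicate 2 and 4 in replicate 1 (0.0600 and 0.10 TPM); a count of 0 would allow up to 3.

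The immunoproteasome subunits fell into different ranges of level. Psmb8 (ENSMUSG00000024338.15, build mm10, chromosome 17, 34197721 to 34201454, plus strand) had 1.41 TPM in replicate 2 and 1.22 in replicate 1, from 35 and 27 expected counts. Psmb9 (ENSMUSG00000096727.3, chromosome 17, 34181987 to 34187764, minus strand) had 0.880 and 0.700 TPM, from 15 and 11 counts. Psmb10 had 40.6 and 41.0 TPM, from 588 and 585 counts, so it alone made up nearly all of the 42.9 TPM that the 3 genes summed to in each animal. The 3 genes held 1.97% and 1.91% of the proteasome TPM.

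The 7 constitutive beta subunits summed to 511 TPM in replicate 2 and 536 in replicate 1. The highest was Psmb4, a non-catalytic subunit, at 127 and 124 TPM. With protein-coding transcripts only it had 63.6 and 65.5 TPM, below Psmb7 (89.3 and 92.0), Psmb5 (73.3 and 80.1) and Psmb6 (65.0 and 66.3). By TPM of the whole gene, the catalytic subunits followed Psmb4. Psmb7, the trypsin-like site (chromosome 2, 38588036 to 38644087, minus strand), had 89.8 and 92.4 TPM. Psmb5, the chymotrypsin-like site and main target of proteasome inhibitors (chromosome 14, 54614119 to 54618022, minus strand), had 73.3 and 80.1 TPM. Psmb6, the caspase-like site (chromosome 11, 70525367 to 70527858, plus strand), had 74.6 and 78.4 TPM. Psmb5 and Psmb6 did not differ beyond the spread between the animals. The non-catalytic Psmb1 averaged 56.2 ± 6.03 TPM, Psmb3 55.3 ± 1.32 and Psmb2, the lowest, 42.4 ± 3.18 (SD, n = 2 each). Psmb11, the thymus form of the subunit that Psmb5 encodes, had 2 counts in replicate 2 and 6 in replicate 1, at 0.0200 and 0.0700 TPM. Its gene lies 3410 bases from Psmb5 on chromosome 14.

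Set against its constitutive counterpart, Psmb8 stood at 1.92% of Psmb5 in replicate 2 and 1.52% in replicate 1. Psmb9 stood at 1.18% and 0.893% of Psmb6, and Psmb10 at 45.2% and 44.4% of Psmb7. By expected counts, which also give an exact Clopper-Pearson 95% interval for counting error, Psmb8 was at 2.80% (1.94 to 3.92) in replicate 2 and 1.94% (1.27 to 2.84) in replicate 1. Psmb9 was at 1.37% (0.765 to 2.27) and 0.945% (0.470 to 1.70) by counts, and Psmb10 at 28.7% (26.1 to 31.4) and 27.2% (24.8 to 29.9). For Psmb8 and Psmb9 the intervals of the animals overlapped and no upper bound was above 3.92%. For Psmb10 the percentage was lower by counts, which are not scaled for length, than by TPM. In the other deposited quantification, made directly from the reads, Psmb8 was at 2.62% and 1.62%, Psmb9 at 1.01% and 2.78% and Psmb10 at 45.9% and 41.1%.

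**Figure D2:**
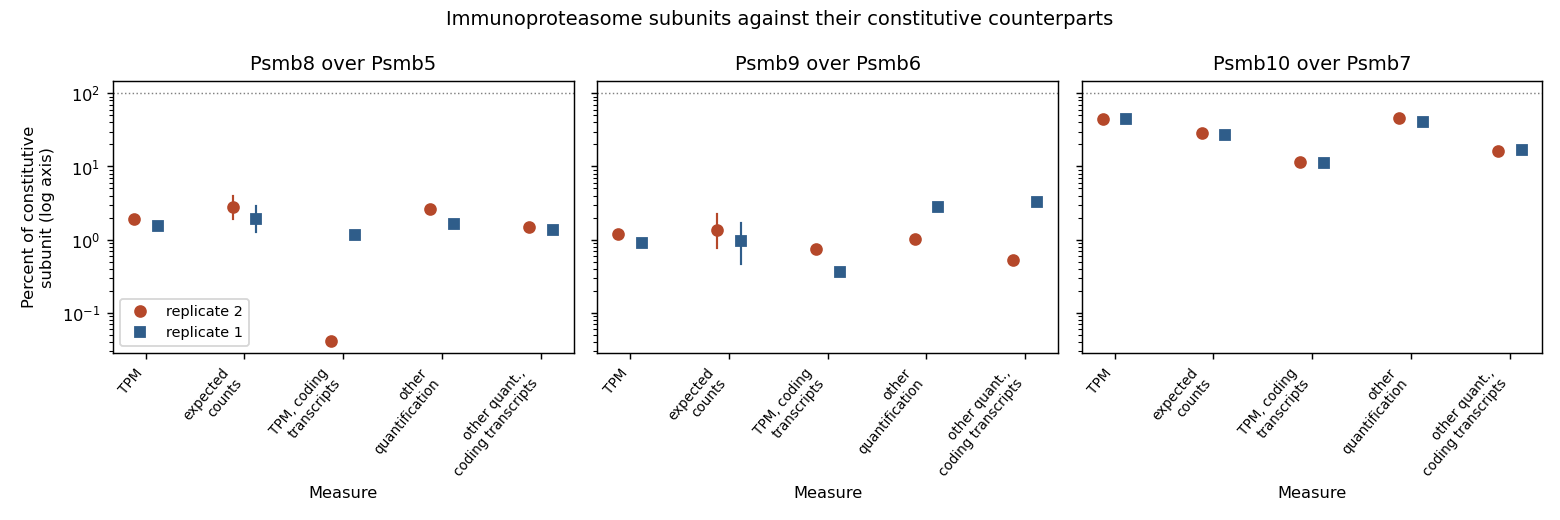
Each immunoproteasome subunit as a percentage of its constitutive counterpart on a log axis, by 5 measures, with circles for replicate 2 and squares for replicate 1; lines on the expected counts are 95% counting intervals and the dotted line is 100%. Psmb8 and Psmb9 stay below 4% by every measure shown, and Psmb10 lies at 45.2% and 44.4% by TPM but at 11.7% and 11.3% when only protein-coding transcripts are counted.

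Most Psmb10 TPM was assigned to forms that are not protein coding. Psmb10 (ENSMUSG00000031897.9, build mm10, chromosome 8, 105935735 to 105938444, minus strand) has 7 annotated transcripts, of which 1, Psmb10-201, is protein coding. Psmb10-201 has 8 exons and 1311 bases and was at 10.4 TPM in each animal. By expected counts, which are not scaled for length, it led the 7 forms, with 270 in replicate 2 and 275 in replicate 1. Psmb10-205, a form of the retained-intron class with 554 bases, was at 19.2 TPM in replicate 2 and 20.6 in replicate 1. Counting protein-coding transcripts alone, Psmb10 stood at 11.7% and 11.3% of Psmb7, and at 16.3% and 16.7% in the other quantification.

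The other Psmb10 forms share most of their bases with the coding form. Of the 554 bases of Psmb10-205, 494 (89.2%) lie within exons of Psmb10-201, and it holds 4 exons at the 3′ end of the gene. The deposited posterior SD, the authors' own error for the division of reads, was 21.4 and 22.7 reads for Psmb10-205, on counts of 187 and 204. The short processed transcript Psmb10-203 was at 5.93 and 7.0 TPM and the retained-intron form Psmb10-206 at 4.09 and 2.67 TPM. In the other quantification Psmb10-205 was at 16.3 TPM in replicate 2 and 6.08 in replicate 1, Psmb10-207 reached 9.31 and 19.5 TPM, and Psmb10-201 led with 24.2 and 24.8 TPM. The antisense gene Gm16156, which covers all 2710 bases of the gene, was at 0.150 and 0.0700 TPM.

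**Figure D3:**
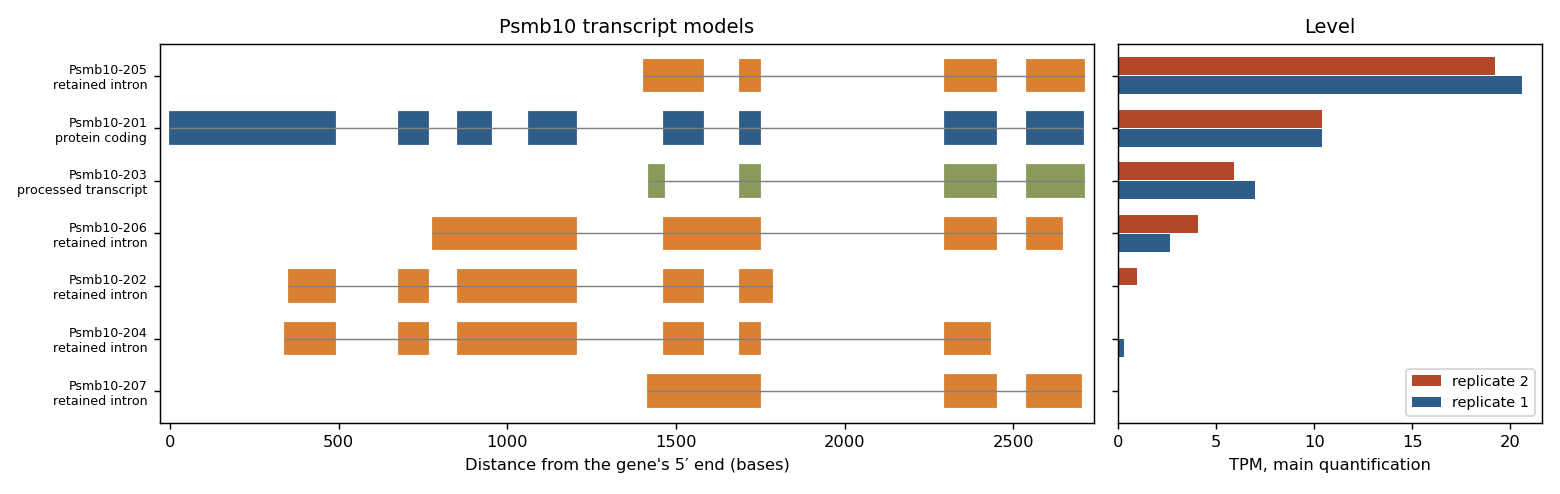
Left, exons (boxes) of the 7 annotated Psmb10 transcripts by distance in bases from the 5′ end of the gene, in blue for protein coding, orange for retained intron and green for processed transcript. Right, TPM of each form in replicate 2 (upper bar) and replicate 1 (lower bar), where Psmb10-205 has 19.2 and 20.6 and the protein-coding Psmb10-201 has 10.4 in each.

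Psmb8 and Psmb9 RNA was too scarce to place among their forms. The leading Psmb8 form was the retained-intron transcript Psmb8-205 in replicate 2, with 62.4% of the gene's TPM, and the protein-coding Psmb8-203 in replicate 1, with 61.5%. Protein-coding Psmb8 forms held 0.0300 TPM in replicate 2 and 0.920 in replicate 1. For Psmb9 the leading form was Psmb9-207, of the nonsense-mediated decay class, at 44.3% and 65.7%. Psmb9 has counts of 15 and 11 in all, so these shares come from a handful of reads.

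Of 10 genes of interferon response and class I presentation, 8 averaged below the 16.0 TPM median of detected genes. Tap1 was at 0.920 TPM in replicate 2 and 1.00 in replicate 1, Tap2 at 3.10 and 4.32, and Nlrc5, the activator of class I genes, at 0.260 and 0.0700. B2m, the light chain of class I molecules, was the highest of the 10, at 52.3 and 51.2 TPM. The 4 microglia markers Csf1r, Cx3cr1, P2ry12 and Tmem119, which mark the resident immune cells of the brain, summed to 65.0 and 67.9 TPM. In bulk tissue, few cells with much immunoproteasome RNA and many cells with little cannot be told apart, and the part of microglia in these levels was not tested.

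By TPM in the main quantification, the 6 ATPases of the cap fell into a higher and a lower set. Psmc1 had 95.3 TPM in replicate 2 and 95.4 in replicate 1, Psmc3 had 90.8 and 95.7, and Psmc5 had 92.4 and 93.3. The other 3, Psmc4 (55.8 ± 0.134 TPM), Psmc2 (51.7 ± 2.33) and Psmc6 (43.1 ± 3.01, SD, n = 2 each), lay below all of these. Among the upper 3, Psmc1 lay above Psmc5 in both animals, and the place of Psmc3 differed between them. Each ATPase is present in equal number in the ring, while the highest had 2.11 times the TPM of the lowest in replicate 2 and 2.34 times in replicate 1. With protein-coding transcripts only, Psmc5 (88.3 and 87.3 TPM) lay above Psmc1 (74.0 and 74.3). In the other quantification Psmc4 had the lowest mean, 84.5 TPM. Psmc6 had 120 and 109 TPM there, close below Psmc5 at 136 and 135, so the sets were less distinct.

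Of the non-ATPase subunits, 11 had a Psm symbol. Psmd2, a scaffold that docks ubiquitin receptors, was the highest of these at 103 TPM in replicate 2 and 101 in replicate 1. Psmd12, a lid subunit, was the lowest at 32.2 and 33.3 TPM. With protein-coding transcripts only, Psmd13 was the lowest, at 27.1 and 25.6 TPM. The ubiquitin receptor Psmd4 had 72.6 and 72.1 TPM, and Psmd14, the deubiquitinase that frees substrates from their ubiquitin chains, had 48.8 and 49.4. Its partner Psmd7 had 49.1 and 50.3 TPM, and the second scaffold Psmd1 had 50.6 and 51.3. These 3, with Psmd6, Psmd11 and Psmd13, had means between 47.1 and 50.9 TPM. Psmd3 averaged 60.00 ± 2.58 and Psmd8 58.4 ± 0.219 TPM (SD, n = 2 each).

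The 31 constitutive core and cap subunits with a Psm symbol were compared. Their highest had 5.16 times the TPM of the lowest in replicate 2 and 4.60 times in replicate 1. The SD of log2 TPM was 0.52 in each. For the 8 subunits of the CCT chaperonin, another ring complex with 1 copy of each subunit per ring, these values were 2.33 and 2.25 times, with an SD of 0.36 and 0.35. In the other quantification the 31 subunits spanned 5.60 and 6.07 times with an SD of 0.53 and 0.54, and the CCT subunits 2.38 and 2.50 times with an SD of 0.46 and 0.53. For 72 cytosolic ribosomal protein genes the main values were 43.4 and 39.9 times, with an SD of 0.91 in each. In the other quantification these genes spanned 15.7 and 24.9 times, with an SD of 0.73 and 0.76. The CCT range rests on 8 genes, that of the proteasome on 31 and that of the ribosomal proteins on 72. The highest and lowest proteasome subunits depended on the measure. Psmb4 led in the main quantification and Psmc3 in the other, at 180 and 189 TPM there, while Psma2 was lowest in both. With protein-coding transcripts only, in the main quantification, Psmd2 led with a mean of 96.9 TPM and Psmc6 was lowest with 23.9.

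The activators were below the cap subunits with a Psm symbol except for Psme3. Psme3, the nuclear PA28-gamma activator, had 58.2 TPM in replicate 2 and 58.8 in replicate 1. The interferon-inducible PA28 subunits Psme1 and Psme2, which form a mixed ring and lie 5911 bases apart on chromosome 14, had 20.7 and 23.6 TPM and 20.3 and 21.5 TPM. Psme4, the PA200 activator, had 22.1 and 19.4 TPM, and Psmf1, the inhibitor PI31, had 18.7 and 19.4. Thus Psme1, Psme2, Psme4 and Psmf1 all lay between 18.7 and 23.6 TPM in the main quantification. In the other quantification Psme1 had 38.9 and 40.5 TPM, above Psme2 (27.7 and 29.8), Psme4 (32.5 and 27.3) and Psmf1 (30.8 and 29.1). With protein-coding transcripts only, in the main quantification, Psme4 had 17.4 and 15.9 TPM and Psmf1 11.9 and 12.2. Psme2b had 0.680 and 0.490 TPM from 11 and 8 counts, and 76.5% of the 31-base words of its transcript also occur in Psme2 transcripts, so its level is uncertain.

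Assembly chaperones, which help build the particle without remaining in it, were lower still. Their 7 genes summed to 66.9 TPM in replicate 2 and 77.4 in replicate 1. The chaperones of the cap's base were Psmd5 at 14.1 and 17.0 TPM, Psmd9 at 10.3 and 12.4 and Psmd10 at 9.11 and 10.9. The alpha-ring chaperones, which act in pairs, were Psmg1 at 7.05 and 7.76 TPM with Psmg2 at 9.77 and 9.54, and Psmg3 at 7.94 and 8.26 with Psmg4 at 8.57 and 11.6. All 7 lay below every constitutive core and cap subunit with a Psm symbol in both animals. Psmc3ip, which matches the rule by its symbol but is a cofactor of meiotic recombination and no proteasome subunit, had 1.21 and 1.35 TPM.

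Transcript forms differed among the detected genes. A protein-coding transcript led in 43 of the 46, and the leading transcript held 70% or more of the gene's TPM in 28. The leading share was lowest in Psma3 (29.6%), Psmb8 (34.5%), Psmd13 (36.4%) and Psme2 (40.5%), and lay between 43.0% and 67.2% in Psmc3ip, Psmd9, Psmb10, Psmd5, Psmb4, Psme1, Psmc6, Psmd4, Psmf1, Psmd11, Psmg3, Psme4, Psmd10 and Psmg4. Psma5 had its whole TPM in 1 transcript, and Psmb7 99.5% and Psmb5 99.1% in theirs. Across the 46, the median share of TPM outside protein-coding transcripts was 10.3%, against 10.8% over the 12900 detected genes. That share was above 20% in 12 proteasome genes, and such genes made up 35.0% of all detected genes. In the other quantification the proteasome median of 17.9% lay above that of all detected genes, 13.3%, and 22 of the 46 were above 20%, against 40.1% of all. Whether proteasome genes lie below or above other genes in this share thus turned with the quantification.

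**Figure D4:**
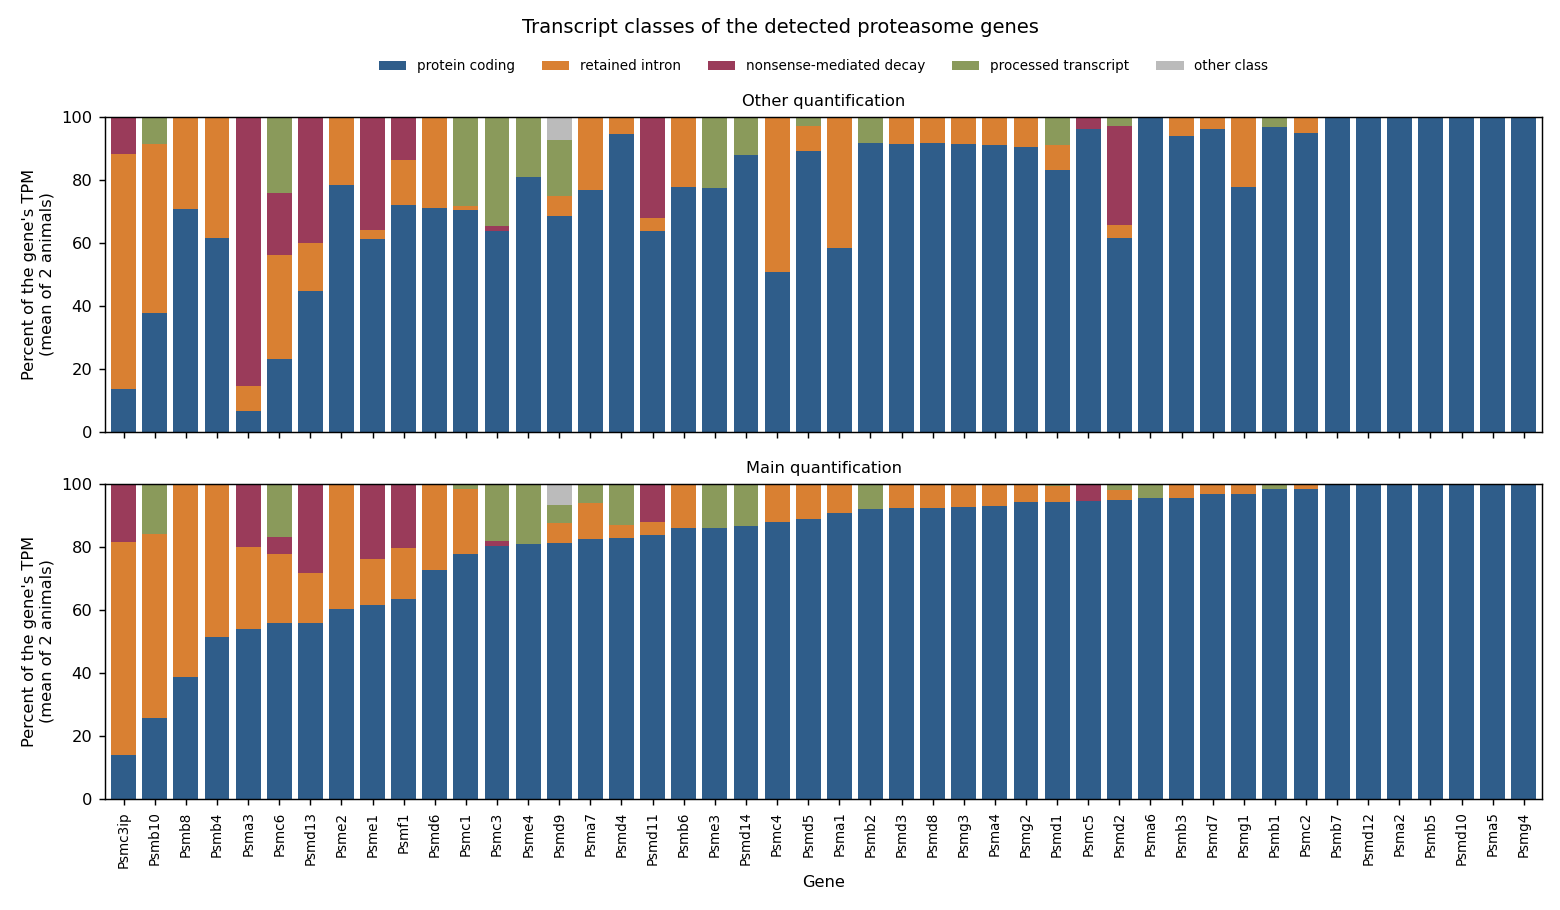
Share of each detected gene's TPM by annotated transcript class, as the mean of the 2 animals, in the other quantification (upper panel) and the main one (lower panel); genes are ordered by the share outside protein-coding transcripts in the main one. The share is above 20% for 22 genes in the upper panel and for 12 in the lower, and Psma3 shows the largest gap between the panels, with 93.4% and 46.2%.

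The 12 genes held different noncoding classes. Retained introns made up 49.9% of Psmb4 TPM in replicate 2 and 47.2% in replicate 1, mainly in Psmb4-202 and the 292-base Psmb4-203. By expected counts, the coding Psmb4-201 had 1473 of 2037 in replicate 2 and 1546 of 2125 in replicate 1. In the other quantification retained introns made up 35.7% and 41.4%. Psmb4-204 held 28.8% there, against 0.398% in the main one, while Psmb4-202 and Psmb4-203 held 8.92% and 0%. In Psmd13, transcripts of the nonsense-mediated decay class held 25.9% and 31.1%, and the coding Psmd13-208 led with 36.4 ± 3.53% (SD, n = 2). Outside protein-coding transcripts lay 44.2 ± 8.02% of Psmc6, 39.6 ± 3.73% of Psme2, 38.6 ± 2.64% of Psme1 and 36.6 ± 0.618% of Psmf1. In the other quantification these shares were 76.8% for Psmc6, 21.6% for Psme2, 38.8% for Psme1 and 28.1% for Psmf1. That of Psme2 was 9.74% in replicate 2 and 33.6% in replicate 1 there. Psmd6 had 27.3 ± 2.89% there and Psmc1 22.2 ± 0.185%. The remaining 4 were Psmb10, Psmb8, Psma3 and Psmc3ip.

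The leading transcript was the same in both quantifications for 37 of the 46 genes. The 9 that changed were Psma3, Psmb1, Psmb8, Psmb10, Psmc6, Psmd5, Psmd8, Psmd13 and Psme2. In Psmb1 both leaders are protein coding: Psmb1-204 held 93.4% in the other quantification, against 10.3% in the main one, where Psmb1-201 held 84.4%. In Psmd8, Psmd8-201 held 55.8 ± 23.3% in the other quantification and 0% in the main one, where Psmd8-202 held 90.5 ± 3.39% (SD, n = 2). In Psma3 the forms Psma3-207 and Psma3-201 of the nonsense-mediated decay class held 40.9% and 38.7% in the other quantification, where the protein-coding share was 6.36% in replicate 2 and 6.83% in replicate 1, against 46.5% and 61.1% in the main one. For whole genes, the ratio of the other quantification to the main one had a median of 1.59 over the 46, against 1.57 over all detected genes, and lay between 1.18 (Psmd4) and 2.66 (Psmc6).

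Copies elsewhere in the genome share sequence with some subunits. In 25 of the 50 genes no 31-base word of the leading transcript occurs in another gene, and in 6 at least 50% of the words do. Psma3 shares 79% with the processed pseudogene Gm13835, which was assigned 17.3 TPM in replicate 2 and 9.81 in replicate 1, while Psma3 had 74.9 and 87.8. Psmb5 shares 61.7% with Gm3375 (7.13 and 6.48 TPM), Psmb3 51.8% with AC114990.1 (7.73 and 7.71) and Psma5 50.5% with Gm8394 (7.90 and 8.96). The deposited posterior SD of the division of reads was 3.03% of the count for Psma3, 0.912% for Psma5, 0.633% for Psmb3 and 0.433% for Psmb5, against 36.9% for Psme2b. Another annotated gene overlaps 24 of the 50 on the genome, on the opposite strand for 19, and whether the counting used strand is not given in the sources used here.

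Between the animals, proteasome RNA differed little. Ratios were taken of replicate 2 over replicate 1 for genes averaging 10 counts or more, on expected counts scaled by edgeR's TMM method with a prior count of 2, with an exact 95% interval for counting error. Only 1 animal stands on each side, so no p-value is given. Of the 47 proteasome genes measured, 0 differed by 2-fold or more, against 1.80% of 18490 genes. Higher in replicate 2 past counting error were 0, against 11.0% of all genes, and lower were 8 (17.0%), against 11.6%.

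The 8 genes lower in replicate 2 came from several parts of the particle. Psmg4, with 78 counts in replicate 2 and 109 in replicate 1, had a log2 ratio of -0.44, and the chaperone Psmd10 one of -0.24. The beta subunits Psmb1, Psmb2 and Psmb5 had log2 ratios of -0.22, -0.16 and -0.13, and the alpha subunit Psma1 one of -0.19. Psmc3 and Psmd2, the most deeply counted of the 8, had -0.09 and -0.06. All 7 constitutive beta subunits had a ratio below 0. Psmc3ip, which is not among the 8, had -0.23, with an interval from -1.11 to 0.60 that held 0. The highest ratios were those of Psmb9 (0.41), Psmb8 (0.38) and Psme2 (0.14), and Psmb10 had 0.04, but the intervals of all 4 held 0. By TPM with a pseudocount of 1 or 0.1, Psmb10 had -0.01 or -0.02 and Psme2 -0.08 with either.

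In all, 36 of the 47 had a log2 ratio below 0, with a median of -0.03, while 49.9% of all genes were below 0. Of 36 with a mean count of at least 500, 30 were below 0, against 56.7% of 8211 genes so counted, and the SD of their log2 ratios was 0.0673, against 0.122. Past counting error, 6 of these 36 were lower in replicate 2, against 19.3% of the genes so counted, and 0 were higher, against 13.6%. When the libraries were scaled by their spike-ins the median of all genes moved to 0.316 and that of the proteasome genes to 0.29, which left the same -0.03 between them. The 8 ratios then stood at 0.26 or less, and 7 of them were above 0, while 65.8% of all genes were higher past counting error. Oligodendrocyte, inhibitory neuron, red blood cell and striatum markers were also lower in replicate 2, with median log2 ratios of -0.26, -0.23, -0.25 and -1.80, and their part in the proteasome ratios was not tested.

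**Figure D5:**
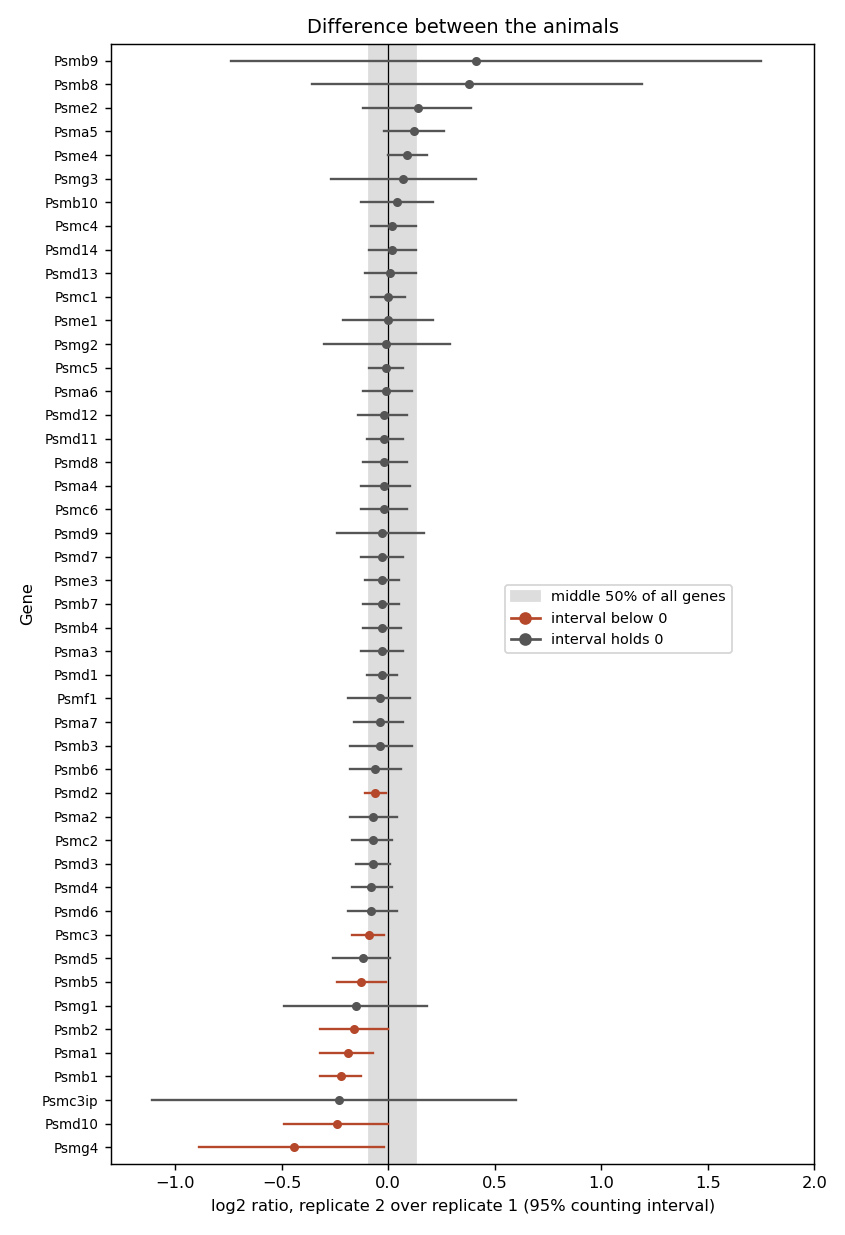
Log2 ratio of replicate 2 over replicate 1 for the 47 measured genes, with 95% counting intervals; the grey band holds the middle 50% of all 18490 genes, from -0.09 to 0.13. The 8 genes whose interval lies below 0 are in red, and Psmb9, Psmc3ip and Psmb8 have the widest intervals.

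Genes of the proteasome system without a symbol of this kind were listed separately. Of 28 listed, 26 were matched, with a median log2 ratio of -0.05. Past counting error, 1 was higher and 8 were lower in replicate 2. Of all genes, 11.0% were higher and 11.6% lower. Of those with a mean count of at least 500, 13.6% were higher and 19.3% lower. Sem1, the small cap subunit without a Psm symbol, was the higher one, with a log2 ratio of 0.22. It had 20.03 TPM in replicate 2 and 17.5 in replicate 1. Ubb, which encodes ubiquitin, had 708 TPM in replicate 2 and 819 in replicate 1 and a log2 ratio of -0.17. Nfe2l1, the transcription factor known to raise proteasome subunit genes when proteasome activity falls, had 124 and 133 TPM and a log2 ratio of -0.06. Its relative Nfe2l2 had 5.80 and 5.85 TPM. Pomp, which matures the core, had 91.2 and 76.8 TPM, above all 7 assembly chaperones with a Psm symbol. Usp14, a deubiquitinase bound to the cap, had 71.4 and 70.9 TPM, and Adrm1, a ubiquitin receptor of the cap, had 42.6 and 46.0.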

How the data were processed

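Total RNA-seq libraries of 2 animals were analysed, 1 library each, grouped and numbered as the labels give them. The deposited gene and transcript tables of the main quantification hold expected counts and TPM that the authors derived from reads aligned to GENCODE M21 transcripts (build mm10), per the file headers and accompanying descriptions. Their posterior SD is a deposited score of the error of each count in reads, and the percent of its gene that a transcript holds was recomputed from the deposited TPM. The other quantification, made from the reads of 1 sequence file per its description, holds deposited estimated counts and TPM. Aligner and software names were not given in the sources used here. Reads of CAST/EiJ alleles were matched to a C57BL/6J genome, and mismatch effects were not measured.

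Levels are TPM as deposited. The limit that a count of 0 allows was set at 3 counts, whatever the depth of the library. The libraries held 32142918 expected counts in replicate 2 and 33007629 in replicate 1. Rows naming no gene (2.48e-05% of counts in replicate 2, 1.78e-05% in replicate 1) and spike-ins were left out. Expected counts were rounded for the comparison of the animals (edgeR 4.0.16, R 4.3.3), and its 95% intervals are exact conditional Clopper-Pearson intervals that cover counting error only, since reads are not independent molecules. The step was tested on simulated counts. Alternatives were size factors from DESeq2 1.42.0, scaling by spike-ins, log2 TPM after adding 1 or 0.1, a smaller prior count (0.5), a count minimum of 100 or none, the other quantification, leaving out genes with a posterior SD above 5% of the count, TPM rescaled over genes with a protein-coding transcript, and each animal alone. Shared sequence is the share of 31-base words of the leading transcript found in another gene.

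Genes named are the catalytic subunits, the tissue-specific, activator, inhibitor and chaperone genes, the highest and lowest of each other role, the 3 with the largest difference between animals either way, and, for transcript forms, genes with a leading share under 70%, a leader that changed or a noncoding class above 20%; others are named to account for all 50. Some genes of the other lists are not reported here. The members and lists were chosen with earlier results of these data known.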

Additional observations from a re-analysis of the deposited data

How the results depend on the processing

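The sums, and the level of Psmb10 relative to Psmb7, depended on which transcripts and which quantification were counted, and the cause was not tested. In the other quantification the summed TPM was 676 for the alpha ring, 785 for the constitutive beta ring, 69.1 for the immunoproteasome, 773 for the ATPases, 938 for the non-ATPases and 3623 for all 50 genes. Rescaled over genes with a protein-coding transcript, these sums were 770, 1075, 88.1, 887, 1274 and 4537. With protein-coding transcripts only, an alternative chosen after seeing the data, they were 314, 445, 11.3, 361, 540 and 1844, against 375, 524, 42.9, 432, 620 and 2210 as reported. Psmb8 was at 2.12% of Psmb5 in the other quantification, 2.37% by counts, and 0.595% and 1.43% with protein-coding transcripts only in the main and the other quantification, where replicate 2 gave 0.0409% and replicate 1 1.15% in the main one, against 1.72% as reported. Psmb9 was at 1.90% of Psmb6 in the other quantification and 0.558% and 1.87% with protein-coding transcripts only (0.526% in replicate 2 and 3.22% in replicate 1 for the second), against 1.04%. Psmb10 was at 43.5% of Psmb7 in the other quantification, 28.0% by counts, and 11.5% and 16.5% with protein-coding transcripts only, against 44.8%. The highest over the lowest TPM was 5.56 for the alpha ring, 2.52 for the constitutive beta ring, 2.53 for the non-ATPases and 5.84 for the 31 core and cap subunits in the other quantification, and 2.37, 2.33, 3.68 and 4.06 with protein-coding transcripts only, and 3.68 for the ATPases there. Over 20% of TPM lay outside protein-coding transcripts in 22 genes in the other quantification (40.1% of all genes), against 12 (35.0%).

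Spike-in scaling gave 41 genes higher (65.8% of all genes) and 0 lower (0.811%) in replicate 2 past counting error. A mean count of at least 100 gave 1 higher, Psme4 (14.1% of all genes), and 4 lower (12.8%), against 0 (11.0%) and 8 (11.6%) as reported. With spike-in scaling the log2 ratio turned to 0.23 for Psmc3, 0.26 for Psmd2, 0.09 for Psmb1, 0.19 for Psmb5, 0.16 for Psmb2, 0.12 for Psma1 and 0.07 for Psmd10. With TPM and a pseudocount of 1 or 0.1, Psmd2 turned to 0.02. The other quantification also gave 0 and 8: the intervals of Psmb2 (-0.11), Psmd10 (-0.26) and Psmg4 (-0.40) held 0 there, while Psmb3 (-0.16), Psmd1 (-0.08) and Psmd3 (-0.08) were lower past counting error. Each animal alone only repeats the values per animal reported above, so this alternative adds no check. By these, Psmb8 was at 1.52% and 1.92%, Psmb9 at 0.893% and 1.18% and Psmb10 at 44.4% and 45.2% of their counterparts. No paired analysis was possible because there is 1 group. The depth limits Psmb8, Psmb9, Psma8, Psmb11, Psme2b and Psmc3ip, with 35 counts or fewer in each library.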

Other observations

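Genes that bring substrates to the proteasome were also well expressed. Uba1, the enzyme that activates ubiquitin, had 154 TPM in replicate 2 and 155 in replicate 1, and Vcp, the ATPase that extracts ubiquitinated proteins, had 82.2 and 80.2. Among the shuttle factors that carry ubiquitinated proteins, Ubqln2 had 93.2 and 103 TPM, Rad23b 85.2 and 87.3 and Ubqln1 64.1 and 71.8. Ubqln4 had 60.7 and 60.2 TPM. The enzymes that activate the Nfe2l1 protein, the protease Ddi2 and the deglycosylase Ngly1, had 21.1 and 19.4 TPM and 12.7 and 13.2 TPM. Akirin2, which brings proteasomes into the nucleus, had 48.9 and 51.6 TPM. Ubqln1, Ubqln2, Rad23b and Uba1 were lower in replicate 2 past counting error, with log2 ratios of -0.19, -0.14, -0.07 and -0.06.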
